A study of Mus musculus with 28 samples.

Results

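The enzymes described here join a polar group to drugs, hormones, lipids and dietary compounds or split their ester bonds. They were taken as every gene of the count table whose symbol, matched to its Ensembl identifier, starts with Ugt1, Ugt2, Sult, Gsta, Gstm, Gsto, Gstp, Gstt, Gstk, Gstz, Ces1 or Ces2. This gave 45 of the 13519 genes in the table, 44 of them protein coding and 1 (Gstp-ps) a processed pseudogene. A further 41 genes that the annotation lists under these symbols were not analysed here. The table keeps genes with enough reads in some samples, so the 45 are those that passed a filter on low values and not the whole families. All 45 were tested.

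Transcripts were measured by RNA sequencing in 28 samples of colon organoids, which are cultures of mouse colonic epithelium grown as hollow bodies in a matrix, from C57BL/6N mice. All donors carried homozygous Apc flox alleles and the VillinCreERT2 transgene, in which the villin promoter drives a tamoxifen-inducible Cre recombinase in intestinal epithelium. The AC genotype (VillinCreERT2::APCflox/flox) carried nothing else, PAC also carried Trp53LSL-R172H/+, BAC also carried BraffloxV600E/+ and BPAC carried both. Each culture was treated with 3.5 µM 4-hydroxytamoxifen (4-HT), which activates the Cre, or with ethanol (EtOH) as control, for 24 hours, and RNA was taken 3 days later. By the labels, AC came from 1 donor (Col288) and the other genotypes from 2 donors each (Col290 and Col313 for PAC, Col286 and Col291 for BAC, Col287 and Col312 for BPAC), with 2 duplicate cultures per donor. The methods of the study describe more than 1 donor for each genotype, which the labels do not show for AC, so the AC values are taken as those of a single animal. Thus 14 cultures were each measured with EtOH and with 4-HT. A supplementary legend of the study states that the organoids came from 2 distinct passages, which the labels do not name. The duplicates of a donor are not separate animals, so the p-values measure the spread between these cultures. No organoids without the Apc flox allele were part of the series, so an effect of 4-HT itself cannot be told apart from recombination. The labels give no age.

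UDP-glucuronosyltransferases (UGTs) of the endoplasmic reticulum attach glucuronic acid, cytosolic sulfotransferases (SULTs) attach sulfate, and glutathione S-transferases (GSTs) attach glutathione to reactive or lipophilic compounds. Carboxylesterases (CESs) hydrolyse ester and amide bonds of drugs and lipids. In the gut these enzymes are known from the absorptive cells, where they act on food compounds, bilirubin, steroid and thyroid hormones and drugs before these reach the blood, and pumps then carry the conjugates out of the cell.

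Total counts ranged from 20577276 to 40068718 per sample. The level of Trp53 with EtOH was 51.4 to 66.1 CPM (reads scaled to the effective library size, with the trimmed mean of M values) in the 8 samples with the Trp53LSL-R172H allele and 97.9 to 122 in the 6 without it. It was 148 to 227 in the 14 samples with 4-HT. The level of Apc was 27.9 to 49.7 CPM with EtOH and 51.4 to 73.8 with 4-HT, and the ranges did not overlap. The RNA level of Braf, 20.2 to 27.9 CPM in all samples, is no check of the floxed allele, and a total level of Apc does not show whether the floxed part was removed. The 4-HT samples of PAC Col290 duplicate 1 and PAC Col313 duplicate 1 stood apart. They were closer to each other than any other pair of samples compared (root mean square log2 difference 0.204, against 0.346 for the next pair), with a mean chi-square of 2.38 per gene, which is more than sampling noise. Their labels name different donors, yet both held counts of Xist (834 and 636) together with counts of 4 Y-linked genes (1822 and 1543). The other samples of Col290 held 0 to 7 counts of Xist and those of Col313 held no count of the Y-linked genes. The counts of PAC calls, of members lower in all 4 genotypes and of the allele differences are therefore also given without the duplicate 1 cultures of both PAC donors, whereas single PAC values below rest on all 4 PAC cultures unless stated.

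The following stretches upstream of 5 members are shown because Sult1a1, Ugt2b36 and Ces1g had the largest differences of response by the Braf allele, which was known when they were picked, and because Gsta3 and Gstm5 hold the core of the antioxidant response element, TGACNNNGC, outside the annotated gene. The sequences are from RefSeq (GRCm38.p6) and end upstream of the annotated gene: chr7:126676433-126676668 (minus strand) for Sult1a1, chr5:87092556-87092805 (minus strand) for Ugt2b36, chr8:93337309-93337459 (minus strand) for Ces1g, chr1:21240335-21240584 (plus strand) for Gsta3 and chr3:107895604-107895820 (plus strand) for Gstm5. Capitals mark the TGACNNNGC match, and stretches without capitals hold none.
Sult1a1: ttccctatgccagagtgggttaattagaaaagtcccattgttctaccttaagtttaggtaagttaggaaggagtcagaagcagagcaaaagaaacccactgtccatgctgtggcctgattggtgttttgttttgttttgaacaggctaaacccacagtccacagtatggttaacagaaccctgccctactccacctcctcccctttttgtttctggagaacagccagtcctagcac
Ugt2b36: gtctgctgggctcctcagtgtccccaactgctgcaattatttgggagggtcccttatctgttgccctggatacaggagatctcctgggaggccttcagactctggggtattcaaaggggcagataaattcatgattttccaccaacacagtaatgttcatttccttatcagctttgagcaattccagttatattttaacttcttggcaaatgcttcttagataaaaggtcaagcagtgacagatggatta
Ces1g: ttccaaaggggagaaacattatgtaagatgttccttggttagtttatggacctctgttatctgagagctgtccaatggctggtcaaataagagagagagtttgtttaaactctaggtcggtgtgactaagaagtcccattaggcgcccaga
Gsta3: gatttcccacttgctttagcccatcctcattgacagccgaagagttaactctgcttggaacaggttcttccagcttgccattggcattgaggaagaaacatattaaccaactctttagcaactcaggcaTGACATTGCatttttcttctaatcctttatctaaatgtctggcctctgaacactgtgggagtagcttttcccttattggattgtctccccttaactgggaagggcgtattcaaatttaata
Gstm5: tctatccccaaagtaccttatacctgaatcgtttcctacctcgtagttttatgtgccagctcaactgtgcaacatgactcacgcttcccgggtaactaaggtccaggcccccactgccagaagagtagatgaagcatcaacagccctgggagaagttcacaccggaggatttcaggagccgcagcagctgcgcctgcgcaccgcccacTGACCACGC

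Promoter windows of 300 bases, from 250 before to 50 after each RefSeq start, were found for 38 of the 45 members (48 windows). TGACNNNGC, searched on both strands, was present in 3 of these 48 windows and in 12.39% of the 32851 windows of all genes. The matches lay 121 bases before the start of Gsta3, 42 before that of Gstm5 and 129 before that of Gstm7, the last inside the annotated gene. The TCF motif CTTTGAT was in 0 of 48 windows and in 3.73% of all windows. The HNF4A motif CAAAGTCCA was in 1 of 48, 25 bases after a start of Sult1b1 and inside the gene, and in 0.47% of all. No window was given for Ces1d, Ces1f, Ces2b, Gsta4, Gstp-ps, Gstt2 and Sult4a1. These are matches of letters and were not tested for binding.

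With 4-HT, most of the conjugating enzymes and carboxylesterases were called lower in PAC, BAC and BPAC, and 15 of the 45 were in AC. The first comparison asked how each member differed between 4-HT and EtOH within a genotype, tested with the edgeR quasi-likelihood test and a Benjamini-Hochberg adjusted p under 0.01 over all 13519 genes. In AC, 15 of 45 members were called lower and 0 higher, against 4.25% of all genes lower and 3% higher. In PAC, 31 were lower, against 12.2% of all genes, and 1 was higher, against 11.2%. BAC had 35 members lower, against 21.5%, and 1 higher, against 20.3%, and BPAC had 34 lower, against 23%, and 1 higher, against 22%. The member called higher in PAC, BAC and BPAC was Sult4a1. Ces1b, which is among the members lower in BAC and in BPAC, exceeded 1 CPM only with EtOH. In AC, 30 members had an unadjusted p under 0.05, against 30.8% of all genes, and DESeq2 called 1 member higher.

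Ces2b, Ces2c, Gstk1, Gstm1, Gstm3, Gstm7, Gsto1, Sult1b1, Sult1c2, Ugt1a1, Ugt1a7c, Ugt2b34 and Ugt2b5 were lower in all 4 genotypes, which makes 13 members, against 3.85% of all genes. This count needs the AC and the PAC calls. Without the duplicate 1 cultures of PAC it came to 2 (Gstm1 and Sult1c2), against 0.178% of all genes, without either AC culture it was 0, and with the culture as a block it was 21, against 7.99% of all genes. A further 16 were lower in 3 genotypes, 6 in 2 and 3 in 1, while 7 were called lower in none (Gsta4, Gstp-ps, Gstp2, Gstt2, Gstz1, Sult4a1 and Ugt1a2). The shares of all genes for these last counts were not computed, so they only describe the members. For 23 members every 4-HT sample was below every EtOH sample, against 6.85% of all genes. Within cultures, 33 members were lower with 4-HT in all 14 cultures, against 19.5% of all genes, and 1, Sult4a1, was higher in all 14, against 18.5%.

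The median change over the 45 members, averaged over cultures, was -0.93 ± 0.02 (SD, n = 2) for AC, -0.93 ± 0.23 (n = 4) for PAC, -1.76 ± 0.12 (n = 4) for BAC and -1.59 ± 0.21 (n = 4) for BPAC on the log2 scale. The median over all genes lay between -0.02 and 0.01. Summed over the members, the level ran from 6329 to 7543 CPM with EtOH (median 6883), from 3570 to 4584 with 4-HT in AC and PAC and from 2588 to 3089 with 4-HT in BAC and BPAC. The 3 groups did not overlap.

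The AC count rests on 1 donor. Without Col288 duplicate 1 or without Col288 duplicate 2 no member was called in AC, in fits where the lone sample was assumed to vary like the other groups, while with the culture as a block 23 members were lower, against 8.99% of all genes. Without the duplicate 1 cultures of both PAC donors, 3 members were lower in PAC (Sult1c2, Gstm1 and Ces2g), against 0.192% of all genes, and 0 were higher, with a median over the members of -0.76. Calls that held when each of the 14 cultures was left out in turn numbered 0 of 15 for AC, 20 of 32 for PAC, 33 of 36 for BAC and 32 of 35 for BPAC. The calls lost most often were those of Gstp1 (12 of 14 fits), Gsto1 (9) and Ugt2b5 (6) in AC, of Gstp3 (12), Gsta3 and Sult4a1 (11 each) and Gstt1 (8) in PAC, and of Gstm5 (9) in BAC. The other BAC and BPAC calls that were lost were those of Gstp1 and Sult2b1 in BAC, without Col286 duplicate 1 or Col291 duplicate 1, and in BPAC those of Ces1b without Col312 duplicate 1, Gsta1 without Col287 duplicate 1 and Gsta2 without either of these or Col312 duplicate 2. In the fit without the duplicate 1 cultures of PAC, the family medians for PAC were -0.79 for Ugt1, -0.84 for Ugt2, -1.14 for Sult, -0.76 for Gstm, -1.03 for Ces1 and -1.28 for Ces2.

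**Figure D1:**
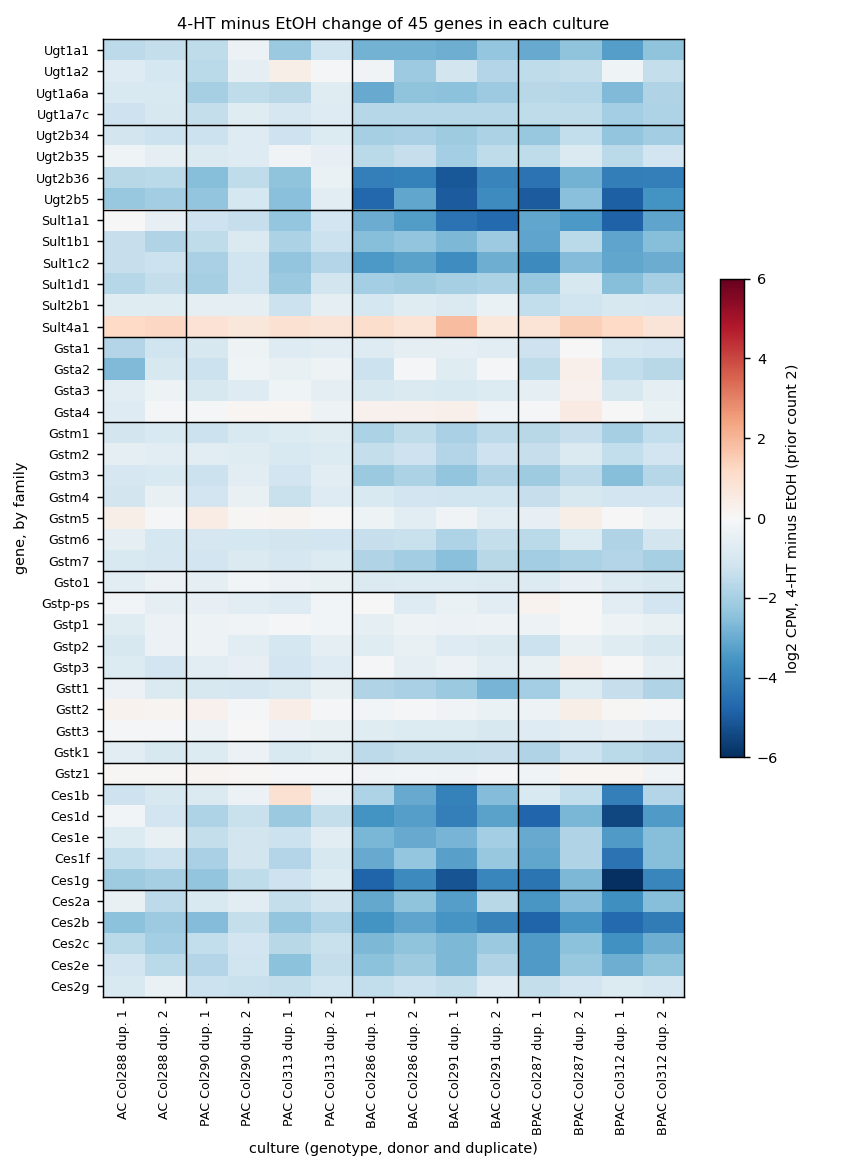
Log2 change with 4-HT against EtOH of each of the 45 members (rows, grouped by family) in each of the 14 cultures (columns, grouped by genotype); blue is lower and red is higher with 4-HT. Most rows are blue in all columns and darker in BAC and BPAC, Sult4a1 is red throughout, and the Gsta4, Gstm5, Gstt2 and Gstz1 rows are pale.

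Levels were set side by side only per kilobase of exon. With EtOH, the highest medians were those of Gstm1 (608 CPM per kilobase), Gsta1 (580.2), Gsto1 (545) and Gstp1 (393). They were followed by Ces2e (199), Gsta4 (184), Ces2c (163) and Ugt2b34 (143). The GSTs thus held the first 4 places. The lowest medians were those of Ugt1a2 (0.251), Ces1b (0.418) and Sult4a1 (0.438). The order among close neighbours, such as Gstm1, Gsta1 and Gsto1, does not stand beyond their spread, since the EtOH samples ranged from 468 to 725 for Gstm1, from 348 to 901 for Gsta1 and from 406 to 596 for Gsto1.

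**Figure D2:**
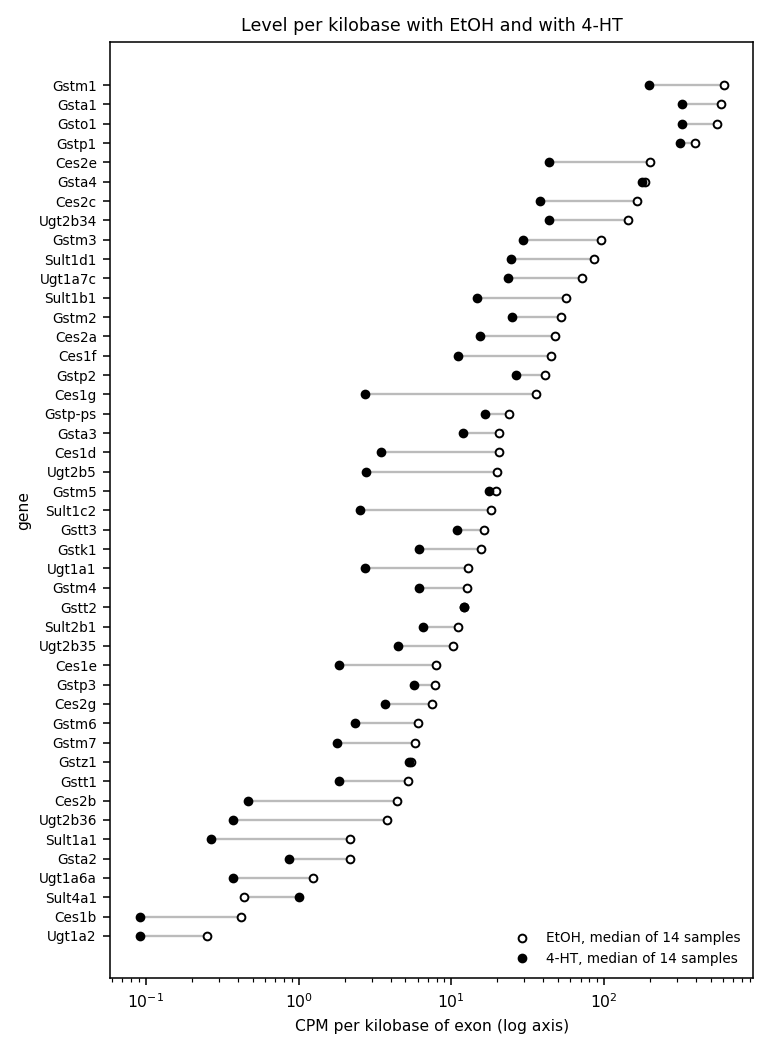
Median level of each member in the 14 EtOH samples (open points) and the 14 4-HT samples (filled points), in CPM per kilobase of exon on a log axis, ordered by the EtOH level. Gstm1 stands highest with EtOH at 608 and Ugt1a2 lowest at 0.251; the filled point lies to the right of the open one for Sult4a1.

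The second comparison asked whether the change with 4-HT differed between genotypes with the BraffloxV600E allele (BAC and BPAC) and without it (AC and PAC). The change was more negative with the allele for 20 of 45 members, against 3.55% of all genes, and more positive for 0, against 3.05%. With the counts of each donor's duplicates summed, 13 members passed, against 1.63% of all genes. Of the 45, 30 had an unadjusted p under 0.05, against 28.5% of all genes, and DESeq2 and limma-voom called 0 more positive too. The 20 members were Ugt1a1, Ugt1a7c, all 4 Ugt2 members, Sult1a1, Sult1c2, Gstm1, Gstm2, Gstm3, Gstm7, Gstt1, Gstt3, Gstk1, Ces1d, Ces1e, Ces1g, Ces2b and Ces2c. No member of the Gsta, Gsto, Gstp or Gstz families was among them. The median difference over the 45 was -0.78, against -0.01 over all genes.

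The count rests in part on the 2 AC cultures, since 10 members were called without Col288 duplicate 1 and 11 without Col288 duplicate 2, against 1.16% and 1.38% of all genes. The calls of Ces1e, Ces1g, Gstk1, Gstm1, Gstm3, Gstm7, Gstt3, Sult1a1, Sult1c2 and Ugt2b36 held with each culture left out in turn. Those of Ces2b (from -1.93 to -1.62), Ugt1a1 (from -1.46 to -1.15) and Ugt2b35 (from -1.01 to -0.86) were lost without either AC culture, that of Ugt2b5 (from -2.23 to -1.85) without either AC culture or Col286 duplicate 1, and that of Gstm2 (from -0.70 to -0.58) without Col288 duplicate 1. The Ugt1a7c call (from -0.77 to -0.62) held only without Col287 duplicate 2, Col290 duplicate 1 or Col313 duplicate 1. Ces1d (from -2.81 to -2.06) and Ces2c (from -1.27 to -1.02) each lost the call without any 1 of 7 cultures, namely both of AC, Col286, Col287 and Col291 duplicate 1 and Col290 and Col313 duplicate 2. Ugt2b34 (from -1.01 to -0.84) lost it without any of these except Col291 duplicate 1, and Gstt1 (from -1.26 to -0.99) lost it in 9 of 14 cases, held only without Col286 duplicate 1, Col287 duplicate 2, Col291 duplicate 2, Col312 duplicate 1 or Col313 duplicate 1. The direction did not change in these 14 fits.

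With the culture as a block, Ugt1a6a, Sult1b1, Ces1f, Ces2a and Ces2e also passed, which made 25 members against 7.48% of all genes. Without the duplicate 1 cultures of both PAC donors, 17 members passed, against 3.05% of all genes, and Ces2c, Gstt1 and Ugt2b35 were lost. For the level with EtOH, 0 of 45 members were called different between BAC and BPAC on one side and AC and PAC on the other by edgeR, limma-voom or DESeq2, against 0.0296% of all genes in either direction, while 12 had an unadjusted p under 0.05, against 17.2% of all genes. With 4-HT, 25 members were lower in level with the allele, against 14.6% of all genes, and for 21 members every 4-HT sample of BAC and BPAC was below every 4-HT sample of AC and PAC, against 9.36% of all genes. Ces1b and Ugt1a2, which exceeded 1 CPM only with EtOH, are among these 21.

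The same question was asked of the Trp53LSL-R172H allele. The change with 4-HT was called different between PAC and BPAC on one side and AC and BAC on the other for 0 of 45 members by edgeR, limma-voom or DESeq2, against 0.0148% of all genes in either direction. By edgeR, 0 of the 45 had an unadjusted p under 0.05, against 1.04% of all genes, and the differences ran from -0.66 to 0.68 with a median of 0.04. Without the duplicate 1 cultures of PAC, again 0 were called and 0 had an unadjusted p under 0.05, and the differences ran from -0.47 to 0.75 with a median of 0.08.

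**Figure D3:**
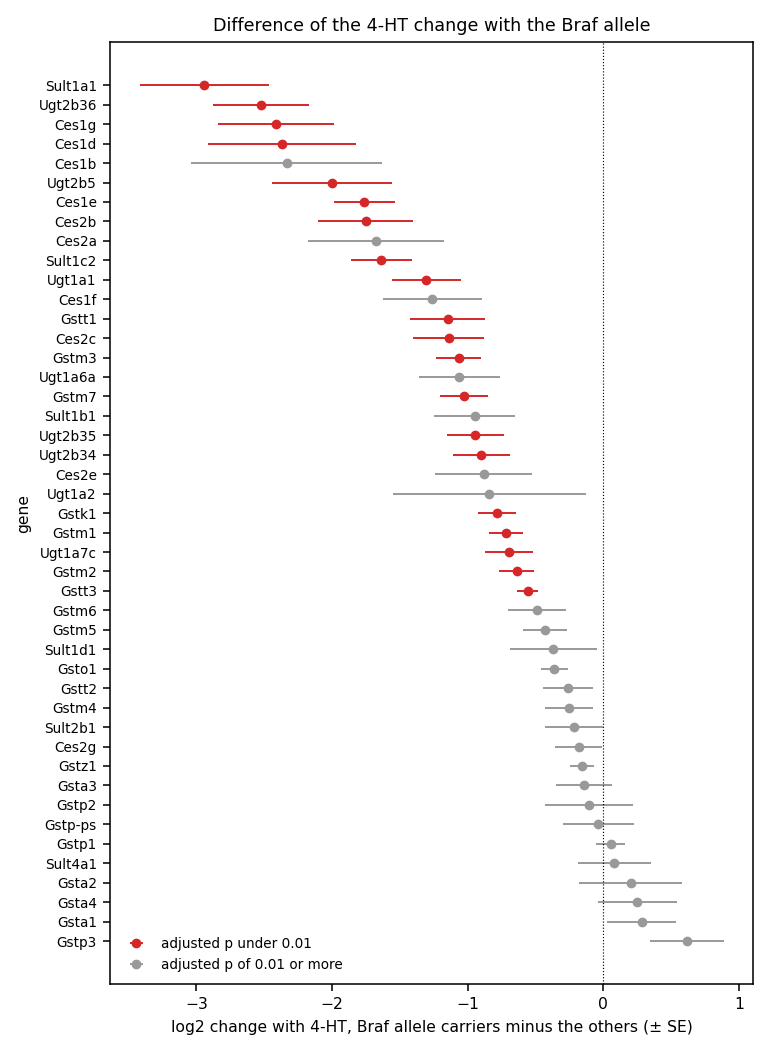
Difference of the log2 change with 4-HT between carriers of the Braf allele (BAC, BPAC) and the other genotypes (AC, PAC) for each of the 45 members, with its SE as a bar; filled points passed an adjusted p under 0.01 in edgeR. Sult1a1, Ugt2b36 and Ces1g lie farthest to the left, between -2.94 and -2.41, and no filled point lies above 0.

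In the following, log2 fold changes with 4-HT against EtOH and their adjusted p are given in the order AC, PAC, BAC and BPAC, ± SE where an error is shown, and sample values in the order of donor and duplicate. The family counts stand beside 4.25%, 12.2%, 21.5% and 23% of all genes lower in these genotypes. Without the duplicate 1 cultures of PAC, the PAC counts were 1 each for Sult, Gstm and Ces2 and 0 for the other families, against 0.192% of all genes. Of the glucuronosyltransferases, the Ugt1 locus on chromosome 1 makes several enzymes that have their own first exon and share the remaining exons. Ugt1a1 is the bilirubin-conjugating enzyme, and Ugt1a6a and Ugt1a7c act on phenols. Because 50.3% to 59.3% of the exon bases of these 4 members are shared on the same strand, the reads of Ugt1a1, Ugt1a2, Ugt1a6a and Ugt1a7c cannot be fully told apart. Of the 4, 2 were lower in AC and 3 in each of PAC, BAC and BPAC. Over the Ugt1 members, the median change averaged -1.04 ± 0.06, -1.07 ± 0.44, -2.17 ± 0.16 and -1.85 ± 0.35 for AC, PAC, BAC and BPAC (± SD, n = 2 in AC and 4 in the others).

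Ugt1a1 (ENSMUSG00000089960, chromosome 1, 88211959 to 88218997, plus strand) fell in all genotypes. In AC, Ugt1a1 was at 24.6 and 19.1 CPM with EtOH and at 8.36 and 7.05 CPM with 4-HT, and in PAC at 29.6, 16.1, 40.2 and 26.8 with EtOH and at 10.4, 12.5, 8.56 and 11.8 with 4-HT. Ugt1a1 was at 28.6, 30.3, 28.8 and 21.6 CPM with EtOH and at 3.9, 4.24, 3.73 and 4.34 CPM with 4-HT in BAC, and at 34.6, 35.1, 26.7 and 29 with EtOH and at 4.18, 6.61, 2.66 and 5.41 with 4-HT in BPAC. Every 4-HT sample was below every EtOH sample, and those of BAC and BPAC were below those of AC and PAC. Ugt1a1 had log2 fold changes of -1.5 ± 0.32, -1.38 ± 0.23, -2.75 ± 0.24 and -2.74 ± 0.24 (SE), with adjusted p of 0.00282, 6.91e-05, 2.05e-09 and 1.32e-09, and the difference with the Braf allele was -1.3 ± 0.25 (SE; adjusted p = 0.0011).

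Ugt1a7c ran from 228 to 348 CPM with EtOH (median 303), from 115 to 187 with 4-HT in AC and PAC (median 151) and from 64.5 to 101 with 4-HT in BAC and BPAC (median 89.5). Its 3 groups did not overlap. Its changes were -1.1, -0.96, -1.73 and -1.73, with adjusted p of 0.00206, 8.52e-05, 6.96e-09 and 4.34e-09, and the difference with the Braf allele was -0.70 ± 0.18 (SE; adjusted p = 0.00924). Ugt1a6a ran from 4.01 to 9.26 CPM with EtOH (median 5.39), from 1.87 to 4.42 with 4-HT in AC and PAC (median 2.82) and from 0.59 to 1.64 with 4-HT in BAC and BPAC (median 1.14). Within each genotype the 4-HT samples were below the EtOH samples, and those of BAC and BPAC were below those of AC and PAC. The ranges over all genotypes overlapped through 1 EtOH sample of BPAC. Ugt1a6a fell in PAC, BAC and BPAC (-0.94, -1.51, -2.6 and -1.98, adjusted p of 0.0827, 0.000153, 6.44e-08 and 1.74e-06). Its difference with the Braf allele was -1.06 ± 0.30 (SE; adjusted p = 0.018), and it passed with the culture as a block (adjusted p = 0.0039). Ugt1a2, at 0 to 1.24 CPM in all samples, was called in no genotype (-1.0, -0.76, -1.8 and -1.63), except with the culture as a block in BAC (adjusted p = 0.00951). Ugt1a2 reached at most 0.8182 CPM with 4-HT and exceeded 1 CPM only with EtOH, so its fall is not independent of the filter on low values.

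The Ugt2 members, enzymes that glucuronidate steroids and other lipophilic compounds, lie together on chromosome 5. Of 4 members, 2 were lower in AC, 3 in PAC and 4 in each of BAC and BPAC. Over the Ugt2 members, the median change averaged -1.42 ± 0.07, -1.28 ± 0.64, -2.99 ± 0.42 and -2.86 ± 0.63 for AC, PAC, BAC and BPAC. All 4 differed with the Braf allele.

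Ugt2b36 (ENSMUSG00000070704, chromosome 5, 87065927 to 87092555, minus strand), whose upstream sequence is given above, had the second largest difference. In AC, Ugt2b36 was at 6.34 and 4.25 CPM with EtOH and at 1.98 and 1.33 CPM with 4-HT, and in PAC at 11.2, 8.03, 10.7 and 4.85 with EtOH and at 1.84, 2.73, 1.94 and 3.63 with 4-HT. Ugt2b36 was at 7.65, 8.01, 8.41 and 7.59 CPM with EtOH and at 0.378, 0.407, 0.18 and 0.42 CPM with 4-HT in BAC, and at 6.64, 7.15, 10.2 and 11.2 with EtOH and at 0.242, 0.935, 0.5 and 0.59 with 4-HT in BPAC. All 4-HT samples were below all EtOH samples, and the 8 of BAC and BPAC were below the 6 of AC and PAC. Ugt2b36 had log2 fold changes of -1.67 ± 0.43, -1.78 ± 0.30, -4.52 ± 0.36 and -3.98 ± 0.34, with adjusted p of 0.0101, 9.5e-05, 7.3e-10 and 1.17e-09, so that AC did not pass. The difference with the Braf allele was -2.52 ± 0.36 (SE; adjusted p = 6.06e-05).

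Ugt2b5 ran from 25 to 81.4 CPM with EtOH (median 36.9), from 6.36 to 20.6 with 4-HT in AC and PAC (median 13.7) and from 0.797 to 5.59 with 4-HT in BAC and BPAC (median 1.76). The 3 groups did not overlap. Ugt2b5 (ENSMUSG00000054630, chromosome 5, 87124960 to 87140318, minus strand) changed by -2.21 ± 0.56, -1.71 ± 0.39, -4.03 ± 0.45 and -3.88 ± 0.43 (adjusted p of 0.00901, 0.00132, 6.83e-08 and 5.16e-08), with a difference of -2.0 ± 0.44 (SE; adjusted p = 0.0036). Of its 50-base stretches, 41.7% occur in other genes, most often Ugt2b38, so its reads may be split. Ugt2b34 ran from 496 to 734 CPM with EtOH (median 617), from 246 to 393 with 4-HT in AC and PAC (median 271) and from 102 to 201 with 4-HT in BAC and BPAC (median 151). These ranges did not overlap either. Ugt2b34, the Ugt2 member with the highest level per kilobase, changed by -1.2, -1.0, -1.99 and -2.01 (adjusted p of 0.00364, 0.000284, 1.12e-08 and 6.64e-09), with a difference of -0.90 ± 0.21 (SE; adjusted p = 0.00514). Ugt2b35 ran from 22.6 to 43.5 CPM with EtOH (median 34.6), from 19.9 to 30.02 with 4-HT in AC and PAC (median 24.2) and from 8.38 to 15.4 with 4-HT in BAC and BPAC (median 11.5). The EtOH and 4-HT ranges over AC and PAC overlapped, whereas those of BAC and BPAC with 4-HT were below all others. Ugt2b35 fell in BAC and BPAC, and the values were -0.41, -0.61, -1.63 and -1.28 (adjusted p of 0.31, 0.0134, 1.79e-07 and 4.4e-06, and 0.00187 in PAC with the culture as a block). The difference was -0.94 ± 0.21 (SE; adjusted p = 0.00378), lost without the duplicate 1 cultures of PAC (adjusted p = 0.0109).

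**Figure D4:**
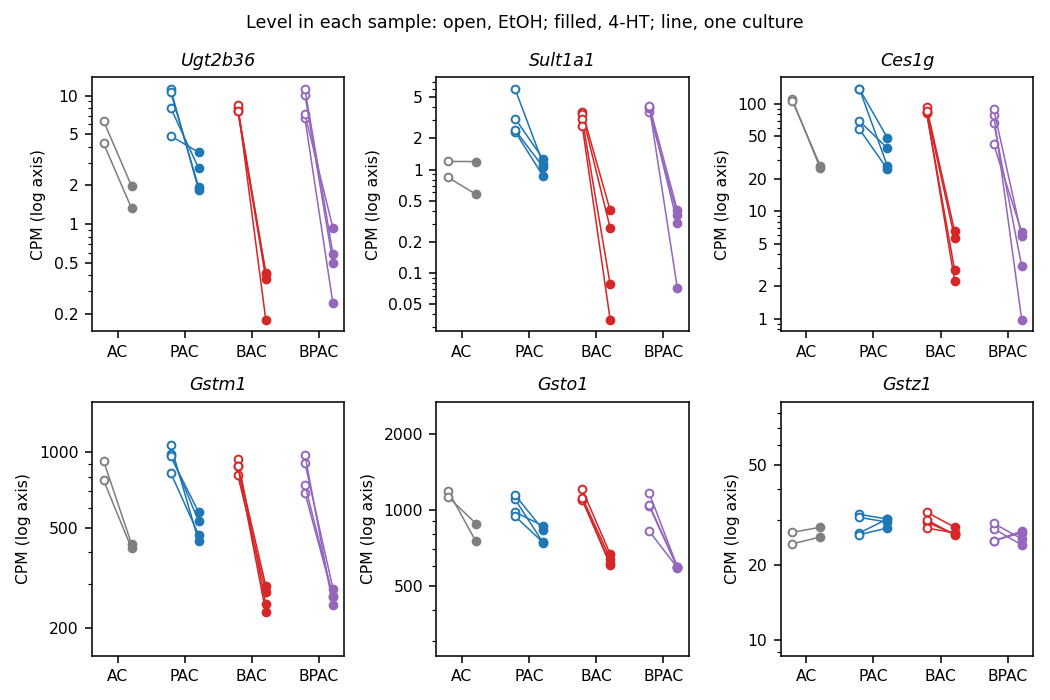
CPM on a log axis of 6 members in each of the 28 samples by genotype; open points are EtOH, filled points are 4-HT, and a line joins the samples of 1 culture. Ugt2b36, Sult1a1 and Ces1g drop furthest in BAC and BPAC, Gstm1 and Gsto1 drop in all 4 genotypes, and Gstz1 stays between 23.9 and 32.3 CPM.

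Of the 6 sulfotransferases, 2 were lower in AC and 5 in each of PAC, BAC and BPAC. Over the Sult members, the median change averaged -1.03 ± 0.03, -1.4 ± 0.47, -2.23 ± 0.13 and -2.3 ± 0.64 for AC, PAC, BAC and BPAC. Sult4a1, a sulfotransferase known from brain, moved the other way.

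Sult1a1 (ENSMUSG00000030711, chromosome 7, 126672865 to 126676432, minus strand), the phenol sulfotransferase, had the largest difference with the Braf allele. In AC, Sult1a1 was at 1.2 and 0.841 CPM with EtOH and at 1.2 and 0.575 CPM with 4-HT, and in PAC at 3.12, 2.33, 6.01 and 2.4 with EtOH and at 1.27, 0.864, 1.14 and 1.06 with 4-HT. Sult1a1 was at 3.64, 3.41, 3.09 and 2.65 CPM with EtOH and at 0.401, 0.272, 0.0771 and 0.035 CPM with 4-HT in BAC, and at 3.64, 3.96, 4.04 and 4.16 with EtOH and at 0.362, 0.3, 0.0714 and 0.404 with 4-HT in BPAC. In AC, the EtOH and 4-HT samples overlapped. In the other genotypes all 4-HT samples were below all EtOH samples, and those of BAC and BPAC, at 0.404 CPM or less, were below those of AC and PAC. Sult1a1 had log2 fold changes of -0.20 ± 0.58, -1.67 ± 0.40, -3.95 ± 0.46 and -3.8 ± 0.45, with adjusted p of 0.87, 0.00202, 1.59e-07 and 1.28e-07, and the difference was -2.94 ± 0.48 (SE; adjusted p = 0.00022). The level of Sult1a1 with EtOH was lowest in AC, and the difference between genotypes with and without the allele in EtOH was 0.92 (adjusted p = 0.154).

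Sult1c2 ran from 18.5 to 55.2 CPM with EtOH (median 33.3), from 7.48 to 13.3 with 4-HT in AC and PAC (median 10.6) and from 2.88 to 4.97 with 4-HT in BAC and BPAC (median 3.81). These ranges did not overlap. Sult1c2 (ENSMUSG00000023122, chromosome 17, 53829637 to 53846339, minus strand) fell in all genotypes (log2 -1.35 ± 0.28, -1.85 ± 0.20, -3.34 ± 0.22 and -3.13 ± 0.21, adjusted p of 0.00241, 1.03e-06, 9.08e-11 and 4.69e-11), and the difference was -1.64 ± 0.22 (SE; adjusted p = 4.74e-05). Sult1b1 ran from 120.0 to 194 CPM with EtOH (median 156), from 38.6 to 64.8 with 4-HT in AC and PAC (median 51.4) and from 14.6 to 55.2 with 4-HT in BAC and BPAC (median 28.7). All 4-HT samples were below all EtOH samples, while samples with and without the Braf allele overlapped. Sult1b1, which sulfates thyroid hormones and phenols, changed by -1.58, -1.4, -2.42 and -2.46 (adjusted p of 0.00669, 0.000335, 1.27e-07 and 7.79e-08). Its difference of -0.95 ± 0.30 (SE; adjusted p = 0.0331) passed with the culture as a block (adjusted p = 0.0032).

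Sult1d1 ran from 160.3 to 290.2 CPM with EtOH (median 210.5), from 52.8 to 115 with 4-HT in AC and PAC (median 70.6) and from 28.1 to 86.8 with 4-HT in BAC and BPAC (median 50.4). Sult1d1, which acts on catecholamines, had the highest level per kilobase in the family. Its 4-HT samples were below all EtOH samples, and it fell in PAC, BAC and BPAC (-1.56, -1.56, -2.01 and -1.84, adjusted p of 0.0115, 0.000248, 4.13e-06 and 1.01e-05), and in AC with the culture as a block (adjusted p = 0.000912). Its difference with the Braf allele was -0.37 ± 0.32 (SE; adjusted p = 0.482). Sult2b1, which sulfates cholesterol and other hydroxysteroids, had values of -0.72, -0.81, -0.78 and -1.18 (adjusted p of 0.0715, 0.00223, 0.00154 and 1.55e-05, and 0.00601 in AC with the block). It passed in PAC, BAC and BPAC.

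Sult4a1 (ENSMUSG00000018865, chromosome 15, 84076097 to 84105754, minus strand) rose in 3 genotypes. In AC, Sult4a1 was at 1.12 and 1.05 CPM with EtOH and at 2.64 and 2.59 CPM with 4-HT, and in PAC at 0.967, 1.61, 1.08 and 0.916 with EtOH and at 1.84, 2.59, 2.08 and 1.61 with 4-HT. Sult4a1 was at 1.12, 1.08, 0.853 and 1.34 CPM with EtOH and at 2.43, 2, 3.32 and 2.1 CPM with 4-HT in BAC, and at 1.71, 1.05, 1.78 and 1.3 with EtOH and at 3.04, 2.94, 4.14 and 2.3 with 4-HT in BPAC. The 4-HT value exceeded the EtOH value in all 14 cultures, although the 2 ranges overlapped over all samples. Sult4a1 had log2 fold changes of 1.27 ± 0.34, 0.83 ± 0.24, 1.16 ± 0.24 and 1.09 ± 0.24, with adjusted p of 0.0129, 0.00969, 0.000268 and 0.000379, and AC passed with the culture as a block (adjusted p = 0.00644). The PAC call was lost in 11 of 14 fits that left out a culture and without the duplicate 1 cultures of PAC (adjusted p = 0.225).

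Among the glutathione transferases, the alpha class is known for binding bile pigments and for reducing lipid peroxides. Of 4 Gsta members, 1 was lower in each of AC, PAC and BAC and 2 in BPAC, and none differed with the Braf allele. Over the Gsta members, the median change averaged -0.95 ± 0.44, -0.51 ± 0.30, -0.56 ± 0.23 and -0.62 ± 0.61 for AC, PAC, BAC and BPAC. Gsta1 shares 90.5% of its 50-base stretches, most often with Gm3776, and Gsta2 49.8%, most often with Gsta1, so their reads may be split.

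Gsta1 (ENSMUSG00000074183, chromosome 9, 78230656 to 78242684, plus strand) had the second highest level per kilobase of the 45. In AC, Gsta1 was at 677 and 679.5 CPM with EtOH and at 199 and 292 CPM with 4-HT, and in PAC at 623, 710.0, 556 and 811 with EtOH and at 320.0, 566, 329.6 and 499 with 4-HT. Gsta1 was at 407, 554, 419 and 463 CPM with EtOH and at 242, 370.1, 278 and 296 CPM with 4-HT in BAC, and at 550.5, 332, 533 and 862 with EtOH and at 233, 324, 258 and 388 with 4-HT in BPAC. The 4-HT sample was lower within each of the 14 cultures, and the ranges of EtOH and 4-HT overlapped. Gsta1 had log2 fold changes of -1.47 ± 0.33, -0.65 ± 0.23, -0.64 ± 0.23 and -0.92 ± 0.23, with adjusted p of 0.00379, 0.0275, 0.0216 and 0.00147. It fell in AC and BPAC, and with the culture as a block also in PAC and BAC (adjusted p of 0.00154 and 0.00153). Gsta2 ran from 0.767 to 3.32 CPM with EtOH (median 2.54), from 0.346 to 2.27 with 4-HT in AC and PAC (median 1.57) and from 0.637 to 1.19 with 4-HT in BAC and BPAC (median 0.972). These groups overlapped, and Gsta2 passed in BPAC (-1.73, -0.56, -0.58 and -1.31, adjusted p of 0.018, 0.187, 0.165 and 0.00195). Gsta3, known for the detoxification of aflatoxin epoxide and shown above for its antioxidant response element core, had values of -0.49, -0.65, -0.88 and -0.54 (adjusted p of 0.203, 0.00757, 0.000273 and 0.0142, and 0.00885 in BPAC with the block). It fell in PAC and BAC, and the PAC call was lost in 11 of 14 fits that left out a culture. Gsta4, which conjugates the lipid peroxidation product hydroxynonenal, had values of -0.36, -0.06, 0.14 and -0.07 and passed in none, at 145 to 417 CPM with EtOH and 167 to 336 with 4-HT.

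The mu class, a cluster on chromosome 3 whose enzymes conjugate epoxides and other electrophiles, fell broadly. Of 7 Gstm members, 3, 6, 7 and 6 were lower in AC, PAC, BAC and BPAC, and 4 differed with the Braf allele. Over the Gstm members, the median change averaged -0.91 ± 0.03, -0.91 ± 0.20, -1.52 ± 0.23 and -1.36 ± 0.39 for AC, PAC, BAC and BPAC. Some reads may be split with copies, since 28.8% of the 50-base stretches of Gstm3 and 18.9% of those of Gstm1 occur elsewhere.

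Gstm1 (ENSMUSG00000058135, chromosome 3, 108012255 to 108017973, minus strand) had the highest level per kilobase of all members with EtOH. In AC, Gstm1 was at 925 and 775 CPM with EtOH and at 432 and 415 CPM with 4-HT, and in PAC at 1068, 987, 829 and 964 with EtOH and at 443, 531, 469.8 and 578 with 4-HT. Gstm1 was at 941, 811, 882 and 885 CPM with EtOH and at 249.6, 279.5, 232 and 295 CPM with 4-HT in BAC, and at 908, 689.9, 978 and 743 with EtOH and at 287, 267, 246 and 267 with 4-HT in BPAC. The 3 groups of EtOH, 4-HT without and 4-HT with the Braf allele did not overlap. Gstm1 had log2 fold changes of -1.01 ± 0.16, -0.93 ± 0.11, -1.74 ± 0.11 and -1.64 ± 0.11, with adjusted p of 0.000279, 3.25e-06, 9.08e-11 and 5.64e-11, and the difference was -0.72 ± 0.12 (SE; adjusted p = 0.0004). Gstm1 kept its call in PAC without the duplicate 1 cultures (adjusted p = 0.008).

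Gstm3 ran from 83.8 to 145 CPM with EtOH (median 124), from 45.1 to 71.2 with 4-HT in AC and PAC (median 60.4) and from 21.3 to 41.1 with 4-HT in BAC and BPAC (median 33.5). These ranges did not overlap. Gstm3 changed by -0.95, -0.94, -2.07 and -1.96 (adjusted p of 0.00373, 5.65e-05, 3.89e-10 and 3.53e-10), with a difference of -1.07 ± 0.17 (SE; adjusted p = 0.000168). Gstm7 ran from 5.89 to 11.5 CPM with EtOH (median 9.28), from 2.91 to 5.16 with 4-HT in AC and PAC (median 5.05) and from 1.98 to 3.09 with 4-HT in BAC and BPAC (median 2.44). All 4-HT samples were below all EtOH samples, and the 4-HT ranges with and without the Braf allele overlapped. Gstm7 changed by -0.97, -0.98, -2.03 and -1.98 (adjusted p of 0.00474, 5.9e-05, 7.74e-10 and 6.73e-10), with a difference of -1.03 ± 0.18 (SE; adjusted p = 0.000383). Gstm2 ran from 65.7 to 105 CPM with EtOH (median 87.5), from 43 to 56 with 4-HT in AC and PAC (median 50.01) and from 30.9 to 45.2 with 4-HT in BAC and BPAC (median 37.6). Here too the 4-HT samples were below all EtOH samples, and the 4-HT ranges overlapped each other. Gstm2 fell in PAC, BAC and BPAC (-0.56, -0.78, -1.41 and -1.2, adjusted p of 0.0205, 3e-05, 1.3e-09 and 7.42e-09) and in AC with the block (adjusted p = 0.00678), with a difference of -0.64 ± 0.13 (SE; adjusted p = 0.00171).

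Gstm6 fell in PAC, BAC and BPAC (-0.78, -1.09, -1.53 and -1.32, adjusted p of 0.0491, 0.000132, 4.48e-07 and 2.68e-06), with a difference of -0.49 ± 0.21 (SE; adjusted p = 0.125). Gstm4 did so too (-0.81, -0.97, -1.11 and -1.16, adjusted p of 0.0162, 7.74e-05, 2.98e-06 and 1.31e-06), and it passed in AC with the block (adjusted p = 0.00721), with a difference of -0.25 ± 0.18 (SE; adjusted p = 0.375). Gstm5, which holds the antioxidant response element core shown above, was lower in BAC and passed in no other genotype (0.14, 0.16, -0.46 and -0.09, adjusted p of 0.696, 0.4, 0.00969 and 0.599). Of its exon bases, 13.9% lie opposite a gene on the other strand.

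Gsto1 (ENSMUSG00000025068, chromosome 19, 47854970 to 47864790, plus strand), an omega class enzyme that reduces dehydroascorbate and arsenic compounds, fell in all genotypes. In AC, Gsto1 was at 1193 and 1128 CPM with EtOH and at 749 and 883 CPM with 4-HT, and in PAC at 1101, 981, 944 and 1145 with EtOH and at 742, 864, 742 and 834 with 4-HT. Gsto1 was at 1102, 1093, 1120 and 1206 CPM with EtOH and at 604, 613, 640.5 and 667 CPM with 4-HT in BAC, and at 1034, 822, 1046 and 1163 with EtOH and at 590.3, 589, 594 and 594 with 4-HT in BPAC. Within each genotype the 4-HT samples were below the EtOH samples, and with 4-HT all samples of BAC and BPAC were below those of AC and PAC. Gsto1 had log2 fold changes of -0.51 ± 0.13, -0.39 ± 0.09, -0.84 ± 0.09 and -0.78 ± 0.09, with adjusted p of 0.00859, 0.00169, 4.88e-08 and 1.15e-07, and the difference with the Braf allele, -0.36 ± 0.10 (SE; adjusted p = 0.0177), did not pass. The AC call of Gsto1 was lost in 9 of 14 fits that left out a culture. The levels with 4-HT differed by -0.40 (adjusted p = 8.69e-05).

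The pi class lies on chromosome 19, except for the pseudogene. Of 4 Gstp members, 1 was lower in each of AC, PAC and BAC and 0 in BPAC, and none differed with the Braf allele. Over the Gstp members, the median change averaged -0.60 ± 0.23, -0.57 ± 0.24, -0.46 ± 0.15 and -0.40 ± 0.32 for AC, PAC, BAC and BPAC. Gstp1 (ENSMUSG00000060803, chromosome 19, 4035407 to 4037985, minus strand) had the highest level per kilobase in the class. In AC, Gstp1 was at 754 and 659 CPM with EtOH and at 462 and 515 CPM with 4-HT, and in PAC at 647, 673, 573 and 595 with EtOH and at 519, 579.9, 524 and 524 with 4-HT. Gstp1 was at 661, 575, 602 and 578 CPM with EtOH and at 449.5, 469, 479 and 475 CPM with 4-HT in BAC, and at 602, 420.3, 613 and 621 with EtOH and at 491, 430.2, 493 and 456 with 4-HT in BPAC. EtOH and 4-HT samples overlapped. Gstp1 had log2 fold changes of -0.53 ± 0.14, -0.21 ± 0.10, -0.37 ± 0.10 and -0.27 ± 0.10, with adjusted p of 0.00995, 0.0893, 0.00258 and 0.0204. The AC call of Gstp1 was lost in 12 of 14 fits that left out a culture.

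Gstp3 ran from 4.88 to 13.6 CPM with EtOH (median 7.06), from 2.19 to 5.99 with 4-HT in AC and PAC (median 4.34) and from 4.27 to 7.96 with 4-HT in BAC and BPAC (median 6.63). These groups overlapped, and Gstp3 fell in PAC (-0.95, -0.83, -0.37 and -0.18, adjusted p of 0.0656, 0.00992, 0.197 and 0.554), and in AC with the block (adjusted p = 0.0055). The PAC call of Gstp3 was lost in 12 of 14 fits that left out a culture, and without the duplicate 1 cultures of PAC. Its difference with the Braf allele was 0.61 ± 0.27 (SE; adjusted p = 0.137). Gstp2 had values of -0.69, -0.68, -0.72 and -0.85 (adjusted p of 0.284, 0.0675, 0.0378 and 0.015), and with the culture as a block it passed in PAC, BAC and BPAC (adjusted p of 0.000908, 0.000302 and 3.89e-05). The pseudogene Gstp-ps on chromosome 1 had values of -0.37, -0.51, -0.49 and -0.45, with no call. Of the 50-base stretches, 71.1% of Gstp-ps, 54.3% of Gstp2 and 33.7% of Gstp1 occur elsewhere, most often in another gene of this class, so their reads may be split.

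In the theta class on chromosome 10, Gstt1 and Gstt3 fell in PAC, BAC and BPAC and Gstt2 was not called. Of 3 members, 0 were lower in AC and 2 in each of PAC, BAC and BPAC. Over the Gstt members, the median change averaged -0.11 ± 0.02, -0.30 ± 0.15, -0.83 ± 0.11 and -0.67 ± 0.14 for AC, PAC, BAC and BPAC. Gstt3 ran from 54.8 to 70.7 CPM with EtOH (median 62.9), from 45.1 to 54.8 with 4-HT in AC and PAC (median 50.5) and from 35.8 to 43.2 with 4-HT in BAC and BPAC (median 38.9). All 4-HT samples were below all EtOH samples, by a narrow margin, and those of BAC and BPAC were below those of AC and PAC. Gstt3 (ENSMUSG00000001665, chromosome 10, 75774115 to 75781414, minus strand) had log2 fold changes of -0.11 ± 0.10, -0.28 ± 0.07, -0.83 ± 0.07 and -0.67 ± 0.07 (adjusted p of 0.47, 0.00277, 1.15e-09 and 1.35e-08), with a difference of -0.56 ± 0.08 (SE; adjusted p = 4.58e-05). Gstt1 ran from 4.46 to 10.8 CPM with EtOH (median 7.89), from 2.41 to 5.65 with 4-HT in AC and PAC (median 4.75) and from 1.08 to 3.34 with 4-HT in BAC and BPAC (median 2.3). The ranges overlapped. Gstt1, which acts on small halogenated alkanes, had values of -0.56, -0.83, -2.15 and -1.54 (adjusted p of 0.289, 0.00923, 1.71e-07 and 1.15e-05), with a difference of -1.15 ± 0.27 (SE; adjusted p = 0.00588) that was lost without the duplicate 1 cultures of PAC (adjusted p = 0.0157). Gstt2 had values of 0.18, 0.14, -0.20 and -0.01 and passed in none.

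Gstk1 (ENSMUSG00000029864, chromosome 6, 42245935 to 42250447, plus strand), the kappa class enzyme of mitochondria and peroxisomes, fell in all genotypes. In AC, Gstk1 was at 23.3 and 19.9 CPM with EtOH and at 14.3 and 10.3 CPM with 4-HT, and in PAC at 23.9, 19.4, 25.6 and 18.4 with EtOH and at 13.3, 15.4, 13.6 and 10.9 with 4-HT. Gstk1 was at 22.2, 22.5, 24.4 and 22.3 CPM with EtOH and at 7.46, 8.18, 8.89 and 8.44 CPM with 4-HT in BAC, and at 24.9, 22.3, 23.8 and 23.2 with EtOH and at 7.01, 9.05, 7.78 and 6.83 with 4-HT in BPAC. The EtOH samples, the 4-HT samples of AC and PAC and those of BAC and BPAC formed 3 ranges that did not overlap. Gstk1 had log2 fold changes of -0.81 ± 0.18, -0.71 ± 0.12, -1.47 ± 0.13 and -1.62 ± 0.13, with adjusted p of 0.00325, 0.000134, 2.03e-09 and 3.65e-10, and the difference was -0.78 ± 0.14 (SE; adjusted p = 0.000554). Gstz1 (ENSMUSG00000021033, chromosome 12, 87147165 to 87164723, plus strand), which also acts as maleylacetoacetate isomerase in tyrosine breakdown, was called in no genotype. In AC, Gstz1 was at 26.9 and 24.2 CPM with EtOH and at 28.1 and 25.7 CPM with 4-HT, and in PAC at 26.7, 26.3, 31.7 and 30.8 with EtOH and at 30.4, 28, 30.4 and 29.5 with 4-HT. Gstz1 was at 32.3, 29.5, 30.1 and 27.9 CPM with EtOH and at 28.2, 26.4, 26.3 and 26.7 CPM with 4-HT in BAC, and at 27.8, 24.9, 24.9 and 29.1 with EtOH and at 23.9, 26.8, 27.2 and 25.3 with 4-HT in BPAC. EtOH and 4-HT samples overlapped. Gstz1 had log2 fold changes of 0.08 ± 0.11, 0.03 ± 0.08, -0.15 ± 0.08 and -0.05 ± 0.08, with adjusted p of 0.701, 0.774, 0.105 and 0.627, and the difference was -0.16 ± 0.09 (SE; adjusted p = 0.259).

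The carboxylesterases lie in 2 clusters on chromosome 8. Of the 5 Ces1 members, 0 were called lower in AC, 4 in PAC and 5 in each of BAC and BPAC. Over the Ces1 members, the median change averaged -1.19 ± 0.04, -1.27 ± 0.43, -3.17 ± 0.62 and -2.98 ± 1.11 for AC, PAC, BAC and BPAC, and Ces1d, Ces1e and Ces1g differed with the Braf allele. In AC, by the same test, 3 of the 5 had an unadjusted p under 0.05.

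Ces1g (ENSMUSG00000057074, chromosome 8, 93302369 to 93337308, minus strand), an esterase known for its role in lipid handling and shown above with its upstream sequence, had the largest difference among the esterases. In AC, Ces1g was at 110.4 and 107 CPM with EtOH and at 25.1 and 26.4 CPM with 4-HT, and in PAC at 138, 138, 58 and 69.3 with EtOH and at 26.3, 48.2, 24.7 and 38.7 with 4-HT. Ces1g was at 82.3, 93.1, 84.7 and 85.9 CPM with EtOH and at 2.86, 6.55, 2.26 and 5.67 CPM with 4-HT in BAC, and at 66.9, 42, 79.6 and 89.4 with EtOH and at 3.09, 6.41, 0.975 and 5.87 with 4-HT in BPAC. Within each genotype all 4-HT samples were below all EtOH samples, and the samples of BAC and BPAC with 4-HT, at 0.975 to 6.55 CPM, were below the 24.7 to 48.2 CPM of AC and PAC. Ces1g had log2 fold changes of -2.08 ± 0.54, -1.55 ± 0.38, -4.34 ± 0.43 and -4.11 ± 0.43, with adjusted p of 0.0103, 0.00243, 1.45e-08 and 2.18e-08, and AC passed with the block (adjusted p = 0.0041). The difference with the Braf allele was -2.41 ± 0.43 (SE; adjusted p = 0.000543).

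Ces1d ran from 23.1 to 99.6 CPM with EtOH (median 48.2), from 10.3 to 23.7 with 4-HT in AC and PAC (median 12.9) and from 0.761 to 14.8 with 4-HT in BAC and BPAC (median 4.46). Samples with 4-HT and EtOH overlapped, as did those with and without the Braf allele. Ces1d, a triacylglycerol hydrolase, fell in PAC, BAC and BPAC (-0.55 ± 0.68, -1.78 ± 0.49, -3.54 ± 0.53 and -3.53 ± 0.53, adjusted p of 0.638, 0.00629, 4.9e-06 and 4.1e-06), with a difference of -2.37 ± 0.55 (SE; adjusted p = 0.00468). Ces1e ran from 11 to 20.7 CPM with EtOH (median 17.3), from 6.93 to 9.31 with 4-HT in AC and PAC (median 8.28) and from 1.9 to 4.57 with 4-HT in BAC and BPAC (median 2.56). These 3 ranges did not overlap. Ces1e fell in PAC, BAC and BPAC (-0.66, -1.13, -2.67 and -2.65, adjusted p of 0.101, 0.000125, 6.24e-10 and 3.65e-10), with a difference of -1.76 ± 0.22 (SE; adjusted p = 2.24e-05). Ces1f ran from 119 to 176 CPM with EtOH (median 147), from 44.1 to 71.1 with 4-HT in AC and PAC (median 51.7) and from 5.47 to 40.1 with 4-HT in BAC and BPAC (median 21.9). These ranges did not overlap. Ces1f, which had the highest level per kilobase in the Ces1 family, fell in PAC, BAC and BPAC (-1.4, -1.41, -2.66 and -2.68, adjusted p of 0.0394, 0.0017, 6.57e-07 and 4.87e-07), and its difference of -1.26 ± 0.36 (SE; adjusted p = 0.0208) passed with the block (adjusted p = 0.00403). Ces1b, at 0 to 1.32 CPM in all samples, had values of -1.18, -0.38, -3.39 and -2.83 (adjusted p of 0.331, 0.632, 0.000215 and 0.00222) and passed in BAC and BPAC. Ces1b reached at most 0.6945 CPM with 4-HT and exceeded 1 CPM only with EtOH. Its fall with 4-HT is therefore not independent of the filter on low values. Its BPAC call was lost without Col312 duplicate 1 (adjusted p = 0.0674), and its BPAC change ran from -4.05 to -1.69 over the fits that left out a culture.

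Enzymes of the Ces2 family, to which the main drug-hydrolysing esterase of the intestine belongs, fell in most genotypes. Of 5 Ces2 members, 2 were lower in AC, 4 in PAC and 5 in each of BAC and BPAC. Over the Ces2 members, the median change averaged -1.39 ± 0.34, -1.42 ± 0.19, -2.41 ± 0.41 and -3.01 ± 0.60 for AC, PAC, BAC and BPAC. Ces2b and Ces2c differed with the Braf allele.

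Ces2b (ENSMUSG00000050097, chromosome 8, 104831572 to 104840093, plus strand) fell in all genotypes. In AC, Ces2b was at 16.9 and 10.8 CPM with EtOH and at 2.99 and 2.34 CPM with 4-HT, and in PAC at 16.3, 12.2, 17.7 and 9.7 with EtOH and at 2.66, 4.5, 3.4 and 2.67 with 4-HT. Ces2b was at 12.4, 13.8, 13.7 and 18.6 CPM with EtOH and at 0.968, 1.49, 1.1 and 1.08 CPM with 4-HT in BAC, and at 21.7, 20.7, 10.2 and 22 with EtOH and at 0.701, 1.7, 0.333 and 1.12 with 4-HT in BPAC. The EtOH samples, the 4-HT samples of AC and PAC and those of BAC and BPAC did not overlap. Ces2b had log2 fold changes of -2.37 ± 0.45, -2.09 ± 0.31, -3.65 ± 0.34 and -4.31 ± 0.35, with adjusted p of 0.00112, 2.89e-05, 5.35e-09 and 5.43e-10, and the difference was -1.75 ± 0.35 (SE; adjusted p = 0.00156).

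Ces2c ran from 307 to 490.3 CPM with EtOH (median 376), from 93 to 145 with 4-HT in AC and PAC (median 126) and from 24.6 to 87.2 with 4-HT in BAC and BPAC (median 56.9). These ranges did not overlap either. Ces2c changed by -1.8 ± 0.34, -1.41 ± 0.24, -2.49 ± 0.25 and -3.0 ± 0.25 (adjusted p of 0.00118, 9.53e-05, 1.37e-08 and 9.23e-10), with a difference of -1.14 ± 0.26 (SE; adjusted p = 0.00465) that was lost without the duplicate 1 cultures of PAC (adjusted p = 0.0113). Of its 50-base stretches, 36.1% occur elsewhere, most often in Ces2d-ps. Ces2e ran from 260.4 to 877 CPM with EtOH (median 537), from 108 to 201 with 4-HT in AC and PAC (median 131) and from 52.6 to 183 with 4-HT in BAC and BPAC (median 107). All 4-HT samples were below all EtOH samples. Ces2e, which had the highest level per kilobase of the esterases, fell in PAC, BAC and BPAC (-1.33, -1.82, -2.26 and -2.66, adjusted p of 0.0471, 0.000182, 4.34e-06 and 4.39e-07) and in AC with the block (adjusted p = 0.00176), and its difference of -0.88 ± 0.36 (SE; adjusted p = 0.1) passed with the block (adjusted p = 0.00418).

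Ces2a, at 68.2 to 302 CPM with EtOH and 7.3 to 65.2 with 4-HT, fell in BAC and BPAC (-0.93, -1.06, -2.42 and -2.92, adjusted p of 0.341, 0.0651, 0.000119 and 1.29e-05), and with the block also in PAC (adjusted p = 0.00243). The difference of -1.67 ± 0.50 (SE; adjusted p = 0.0254) passed with the block (adjusted p = 0.000259). Ces2g fell in PAC, BAC and BPAC (-0.65, -1.32, -1.22 and -1.11, adjusted p of 0.0416, 2.86e-06, 4.82e-07 and 1.6e-06), in AC with the block (adjusted p = 0.00699), and in PAC also without the duplicate 1 cultures (adjusted p = 0.00881). Its difference with the Braf allele was -0.18 ± 0.17 (SE; adjusted p = 0.524).

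**Figure D5:**
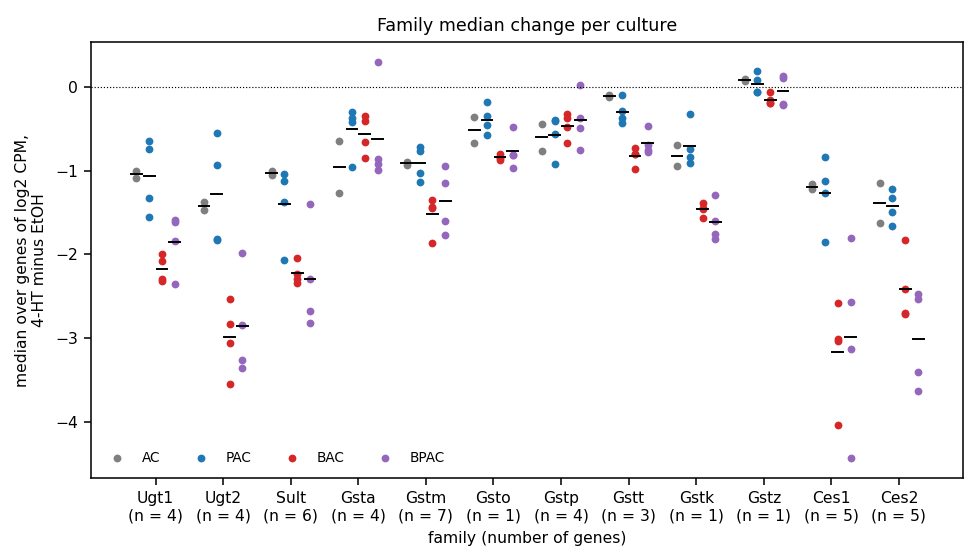
Median log2 change with 4-HT over the members of each family, 1 point per culture, coloured by genotype, with the genotype mean as a bar. BAC and BPAC lie below AC and PAC for Ugt1, Ugt2, Sult, Ces1, Ces2, Gstm, Gsto, Gstt and Gstk in their means, whereas the genotypes lie near each other for Gstp and near 0 for Gstz.

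Genes that work with these enzymes, and markers of cell types, were counted from lists of 118 genes in all. Without the duplicate 1 cultures of PAC, 1 of the 118 was called in PAC (Ascl2, a stem cell marker, which was higher) and 49 had an unadjusted p under 0.05, so the PAC counts that follow rest on those cultures. The list and marker counts stand beside 4.25%, 12.2%, 21.5% and 23% of all genes lower and 3%, 11.2%, 20.3% and 22% higher in AC, PAC, BAC and BPAC. Of 11 genes for cofactor supply, 3, 7, 9 and 8 were lower in AC, PAC, BAC and BPAC, and 1 (Slc35b2, 0.31) was higher in BPAC. Ugdh ran from 1237 to 1950 CPM with EtOH (median 1517), from 565 to 963 with 4-HT in AC and PAC and from 277 to 434 with 4-HT in BAC and BPAC. Ugdh, which makes UDP-glucuronic acid, had log2 changes of -1.54, -1.12, -1.96 and -2.01. Slc35d1, which carries that cofactor into the endoplasmic reticulum, had changes of -1.44, -1.14, -1.24 and -1.51. Both passed in all genotypes. Papss2, which makes the sulfate donor, had values of -1.05, -1.41, -2.05 and -2.37 and did not pass in AC (adjusted p = 0.0782, and 0.00667 with the culture as a block).

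Of 8 export pumps of conjugates, 2 were lower in AC, 4 in PAC and 5 in each of BAC and BPAC. Abcg2, a pump for sulfates and other conjugates, ran from 167 to 294 CPM with EtOH and from 16.9 to 94.2 with 4-HT, with changes of -1.9, -1.63, -2.17 and -2.51 that passed in all genotypes. Abcc2, a pump for glucuronides and glutathione conjugates, had values of -1.64, -0.75, -1.91 and -2.74 and passed in BAC and BPAC. Abcb1b had values of 1.2, 1.12, 1.08 and 1.94 and passed in none, except with the culture as a block in BAC and BPAC (adjusted p of 0.00944 and 0.000579). With the block, 6 genes for cofactor supply and 4 pumps were lower in AC, against 8.99% of all genes. A list of 4 genes covered a glucuronidase, 2 lysosomal sulfatases and Sumf1, which activates sulfatases and removes no conjugate itself. Of these, the sulfatase Arsa was lower in PAC, BAC and BPAC, the sulfatase Arsb in BAC and BPAC and Sumf1 in BPAC. Gusb, the lysosomal beta-glucuronidase that splits glucuronides, was higher in PAC, BAC and BPAC (0.53, 0.49, 0.43 and 0.46). Arsa and Arsb had values of -0.77, -0.70, -0.88 and -0.99, and of 0.07, -0.18, -0.26 and -0.28, respectively.

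Of 15 genes in a further list, most of them for other detoxifying enzymes, 6, 7, 10 and 12 were lower in AC, PAC, BAC and BPAC. Eef1e1, a factor of the tRNA synthetase complex and not a detoxifying enzyme, was higher in PAC, BAC and BPAC. The list also holds Clic1, a chloride channel protein. For Hpgds, a glutathione-dependent prostaglandin D synthase of the sigma class, and Ephx2, the soluble epoxide hydrolase, the change was more negative with the Braf allele than without it. The differences were -1.51 for Hpgds (adjusted p = 9.92e-05) and -1.02 for Ephx2 (adjusted p = 0.00614), the latter lost without the duplicate 1 cultures of PAC. Hpgds ran from 7.27 to 14.7 CPM with EtOH (median 10.9), from 8.32 to 17 with 4-HT in AC and PAC and from 2.85 to 5.19 with 4-HT in BAC and BPAC. Its 4-HT samples in AC and PAC overlapped with EtOH and those in BAC and BPAC were lower. Log2 values were 0.28, 0.12, -1.48 and -1.14 for Hpgds and -1.59, -1.48, -2.44 and -2.67 for Ephx2. Aadac, an esterase of the endoplasmic reticulum, had values of -1.78, -2.29, -3.72 and -3.86, and Mgst1, a membrane-bound glutathione transferase, of -1.09, -1.25, -1.66 and -1.42. Aadac did not pass in AC.

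Of 23 regulators, 4, 8, 10 and 11 were lower in AC, PAC, BAC and BPAC. With the culture as a block these counts were 6, 10, 13 and 13, against 8.99%, 18.4%, 26.7% and 27.7% of all genes. Foxa3 was higher in all genotypes (1.25, 1.41, 1.46 and 1.5), and Foxa2 in BAC and BPAC (0.81 and 1.0). For the fatty acid receptor Ppara and the vitamin D receptor Vdr the change was likewise more negative with the allele. The differences were -1.5 for Ppara (adjusted p = 0.000166) and -0.78 for Vdr (adjusted p = 0.0074). Ppara ran from 11 to 19.5 CPM with EtOH (median 14.6), from 5 to 9.96 with 4-HT in AC and PAC and from 1.88 to 4.38 with 4-HT in BAC and BPAC. The 3 ranges of Ppara did not overlap. Log2 values were -1.32, -0.66, -2.18 and -2.81 for Ppara and -0.67, -0.66, -1.27 and -1.62 for Vdr. The oxysterol receptor Nr1h3 and the bile acid receptor Nr1h4 fell in all genotypes (-1.66, -1.5, -2.04 and -1.9 for Nr1h3, -1.46, -1.09, -1.44 and -1.84 for Nr1h4). Nr1i2, the xenobiotic receptor, was lower in all 4 genotypes, and Ahr, the aryl hydrocarbon receptor, was called in none.

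Markers of the cell types were counted in the same way. All 12 colonocyte markers were lower in BPAC, 11 in BAC, 9 in PAC and 8 in AC, and their summed level was 21020 to 31630 CPM with EtOH, 8668 to 14670 with 4-HT in AC and PAC and 5475 to 11140 in BAC and BPAC. The groups with 4-HT were below the EtOH group and overlapped each other. Of these 12, Guca2a differed with the Braf allele, and among the markers of the other types so did Tff3, Agr2, Sis and Ttr, of which Tff3 and Agr2 were lost without the duplicate 1 cultures of PAC. With the culture as a block, 4 of the 12 colonocyte markers had a more negative change with the Braf allele (Guca2a, Slc26a3, Slc20a1 and Ceacam20), as did 3 enteroendocrine, 3 liver and 2 goblet cell markers, 1 small intestinal marker (Sis) and 1 epithelial marker (Cdh1), against 7.48% of all genes. A more positive change was called with the block for 2 cycling markers and 1 goblet cell marker (Agr2), against 6.51% of all genes. Of 8 stem cell markers, 4, 8, 6 and 8 were higher in AC, PAC, BAC and BPAC, with summed levels of 321 to 536 CPM with EtOH, 860 to 1109 with 4-HT in AC and PAC and 744 to 1025 in BAC and BPAC. Of 4 cycling markers, 1, 2, 3 and 4 were higher in AC, PAC, BAC and BPAC, with sums of 357 to 526, 605 to 643 and 773 to 835 CPM. In bulk samples, fewer cells of a type and less RNA per cell cannot be told apart, and the part of these cell types in the enzymes' changes was not tested.

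The epithelial markers Epcam and Vil1 were lower in PAC, BAC and BPAC and Cdh1 in BAC and BPAC, with a summed level for all 6 of 12460 to 19880 CPM with EtOH and 11020 to 14680 with 4-HT. With the culture as a block, 2, 3, 3 and 4 of the 6 were lower in AC, PAC, BAC and BPAC, against 8.99%, 18.4%, 26.7% and 27.7% of all genes. In each of PAC, BAC and BPAC 1 was then higher, against 2234, 3414 and 3609 of 13519 genes. Of 9 goblet cell markers, Atoh1 was higher in all genotypes, Spdef in PAC, BAC and BPAC, Spink4 in PAC and Agr2 in BAC and BPAC, while Tff3, Fcgbp and Zg16 were lower in BAC and BPAC. The sum was 2327 to 5922 CPM with EtOH and 2152 to 3413 with 4-HT. Of 6 enteroendocrine markers, Neurog3 was higher in all genotypes and Gcg lower in BAC and BPAC, with sums of 159 to 1204 and 192 to 566 CPM. Of 4 tuft cell markers, Dclk1 was lower in BAC and BPAC and Trpm5 in BAC, and the sum never exceeded 30.0 CPM. Of 3 small intestinal markers, Fabp2 was lower in all genotypes, Sis in PAC, BAC and BPAC and Apoa1 in BPAC, with sums of 279 to 659 and 67.5 to 189 CPM. Of 4 liver markers, Apob was lower in PAC, BAC and BPAC and Ttr and Cyp3a11 in BAC and BPAC, with sums of 44.5 to 162 and 7.57 to 46.5 CPM. Of the fibroblast and immune markers, only Cd68 and Cd3e were analysed here, and they summed to at most 6.13 CPM. Neither was called, except that 1 of them was higher in AC with the culture as a block, against 1007 of 13519 genes.

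The duplicate cultures were not alike in the size of the response. Whether duplicates 1 and 2 are the 2 passages that the study describes is not stated, and passage was not tested. In all 7 donors the median over the members of the change in duplicate 1 minus that in duplicate 2 was below 0, from -0.66 in Col287 to -0.02 in Col288, and from 25 to 40 of the 45 members had the lower value in duplicate 1. Over all genes this median lay between -0.04 and 0.02. The median change over the members was -0.94, -1.08, -1.83 and -1.77 for AC, PAC, BAC and BPAC in duplicate 1 alone and -0.95, -0.76, -1.72 and -1.52 in duplicate 2 alone. In duplicate 1 alone, 16 members passed for the difference with the Braf allele, against 2.34% of all genes, and 15 were lower in AC and 29 in PAC, against 4.67% and 15.8%. In duplicate 2 alone, 2 members passed for the difference with the Braf allele, against 0.155% of all genes, and 0 were lower in AC and in PAC, against 0.0962% and 0.037%. With 4-HT, 28 members were lower in level with the Braf allele in duplicate 1 alone, against 11.4% of all genes, and 12 in duplicate 2 alone, against 4.64%. These fits held 1 EtOH and 1 4-HT sample of AC, which were assumed to vary like the other groups.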

How the data were processed

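RNA was sequenced from 28 samples of mouse colon organoids (14 cultures, each with EtOH and with 4-HT). The authors deposited raw counts of reads per gene. Per the labels and the methods, reads were trimmed with Trimmomatic 0.39 and aligned with STAR 2.5.2b to GRCm38. The methods describe a low cutoff on the summed count of a gene. The smallest sum here was 116, so the filter behind the deposited counts is not known. Each gene of the table exceeded 1 CPM in no fewer than 2 samples. Ces1b and Ugt1a2 did so only with EtOH. The counter, the annotation and whether strand was used are not given in the sources used here, so reads of overlapping and antisense genes cannot be told apart. Symbols and exon lengths came from the reference annotation of the same build (13479 of 13519 identifiers matched), and 0 columns went unused. Groups and donors were taken from the labels. The 4-HT sample of Col291 without a number was taken as duplicate 1.

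All 28 samples were fitted together as 8 groups with the edgeR 4.0.16 quasi-likelihood test in R 4.3.3 with TMM scaling (factors 0.885 to 0.970 with EtOH and 1.04 to 1.10 with 4-HT) and Benjamini-Hochberg adjustment over all genes, with a threshold of 0.01. Levels are TMM-scaled CPM, and the change per culture is the difference of log2 CPM with a prior count of 2. Log2 fold changes are given with the SE of the fit. Depth was 20577276 to 40068718 counts per sample, and low genes such as Ces1b and Ugt1a2 rest on few reads. EtOH and 4-HT samples of a culture share an animal and a duplicate number, and they deviated together from their group means (correlations of 0.245 to 0.532 in 12 cultures), so the culture was used as a replicate block in an alternative fit. Other alternatives used limma-voom (limma 3.58.1), DESeq2 1.42.0, other scaling, filtering, depth and sets of samples. The counts over lists, families and all 4 genotypes without the duplicate 1 cultures of PAC were added after the data were seen. The fitting script was tested on simulated data. Members named in full were those past the threshold for an allele difference, the 2 largest changes per family among called members with a mean count of at least 10, and the highest level per kilobase per family. In the other lists, the genes past the threshold for the Braf allele and up to 3 with the largest changes were named, and any further gene was named after its values were seen. The members and lists were chosen with earlier results of these data known.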

Additional observations from a re-analysis of the deposited data

Results flagged for a closer look

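In 9 of 135 sets of 4 cultures (a member in PAC, BAC or BPAC), 1 culture lay far from the other 3 in its log2 change with 4-HT, and chance alone flags about 1 set in 20. In BAC, Ugt2b36 changed by -5.08 in Col291 duplicate 1, against -4.11 to -3.96 in the others, and Gstm6 by -1.87 in the same culture, against -1.43 to -1.36. Gstm4 changed by -0.91 in Col286 duplicate 1 (others -1.20 to -1.16), Gstp1 by -0.56 in that culture (others -0.33 to -0.28) and Gsta4 by -0.17 in Col291 duplicate 2 (others 0.24 to 0.29). In BPAC, Gsta1 changed by -0.036 (others -1.24 to -1.05) and Gsta2 by 0.31 (others -1.67 to -1.47) in Col287 duplicate 2, and Ugt1a2, a gene with few reads, by -0.28 in Col312 duplicate 1 (others -1.51 to -1.42). In PAC, Sult2b1 changed by -1.28 in Col313 duplicate 1 (others -0.60 to -0.58), which is 1 of the 2 cultures whose 4-HT samples held both Xist and Y-linked counts.

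The change with 4-HT of 20 members was more negative with the Braf allele than without it by a test of the difference itself. The differences (log2) were -2.94 for Sult1a1, -2.52 for Ugt2b36, -2.41 for Ces1g, -2.37 for Ces1d, -2.0 for Ugt2b5, -1.76 for Ces1e and -1.75 for Ces2b. They were -1.64 for Sult1c2, -1.3 for Ugt1a1, -1.15 for Gstt1, -1.14 for Ces2c, -1.07 for Gstm3 and -1.03 for Gstm7. The rest were -0.94 for Ugt2b35, -0.90 for Ugt2b34, -0.78 for Gstk1, -0.72 for Gstm1, -0.70 for Ugt1a7c, -0.64 for Gstm2 and -0.56 for Gstt3.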

How the results depend on the processing

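The 163 member values past the threshold were recomputed under 25 alternatives. Of 4050 values, 3668 kept their direction and call, 382 kept their direction but lost the call, and 0 changed direction. Of 197 values not past the threshold, 73 changed direction and 36 passed in at least 1 alternative. For the counts named next, the cause of a change was not tested, and some of the fits held fewer samples. Members lower in AC numbered 8 with library size alone as scaling, 23 with the replicate block, 0 in duplicate 2 alone and 0 to 19 with a culture left out. Members higher in AC numbered 1 with DESeq2, library size alone or the block, and 0 to 1 with a culture left out. Members lower in PAC numbered 0 in duplicate 2 alone and 3 without PAC duplicate 1. Members higher in PAC numbered 0 with limma-voom, DESeq2 size factors, donor sums, thinned counts, either duplicate alone or without PAC duplicate 1, and 0 to 1 with a culture left out. Members higher in BAC and in BPAC numbered 0 in duplicate 2 alone. Members with a more negative change with the Braf allele numbered 13 with donor sums, 2 in duplicate 2 alone and 10 to 24 with a culture left out. Members lower in 4-HT level with the Braf allele numbered 12 in duplicate 2 alone, against 4.64% of all genes there. Members higher in that level numbered 1 with DESeq2, donor sums or without PAC duplicate 1 and 0 to 1 with a culture left out. Members lower in all 4 genotypes, counted after the data were seen, numbered 21 with the replicate block and 2 without PAC duplicate 1. The replicate block took no call from the members. With library size alone, the median of all genes moved to 0.23 (AC), 0.20 (PAC), 0.13 (BAC) and 0.18 (BPAC), with 1511 genes higher and 302 lower for AC, 3388 and 737 for PAC, 3881 and 2066 for BAC and 4331 and 2038 for BPAC. The member medians were then -0.70, -0.72, -1.57 and -1.42.

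Where the summed CPM of a family replaced the median over its members, the change was -1.12 for Ugt1, -1.19 for Ugt2, -1.43 for Sult, -1.46 for Ces1 and 0.004 for Gstt in AC, the last reversed in sign. It was -0.25 for Gstp and -0.12 for Gstt in PAC, -1.80 for Ugt1, -2.04 for Ugt2, -2.01 for Sult and -0.59 for Gstt in BAC, and -2.10 for Ugt2 and -0.40 for Gstt in BPAC. With a prior count of 0.5, it was -2.38 for Ugt1 in BAC and -1.24 for Ces1 in AC. Depth limits the low members Ugt1a2 and Ces1b, which had no reads in some samples.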
